A study of Mus musculus with 8 samples.

Results

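Alpha and beta tubulin isotypes are the interchangeable subunits from which microtubules are assembled. The 10 genes described here are 4 alpha isotypes (Tuba1a, Tuba1b, Tuba1c and Tuba4a) and 6 beta isotypes (Tubb2a, Tubb2b, Tubb3, Tubb4a, Tubb4b and Tubb5), out of 22553 genes in the deposited table. They were chosen by gene name with their measured counts already known, so their levels and ratios are a description and carry no test. All 10 were found, and all passed the filter on low counts in footprints and in RNA.

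Ribosome footprints, the stretches of mRNA protected by translating ribosomes, and input RNA were sequenced from cells sorted from the main olfactory epithelium of mice. Cells with Ngn1-GFP are neuronal progenitors and immature olfactory sensory neurons, called immature cells below, and cells with OMP-GFP are mature olfactory sensory neurons, called mature cells. Control mice carried floxed Mex3a on both alleles or on a single allele and no Cre, together with the Ngn1-GFP or the OMP-ires-GFP reporter. Knockout (KO) mice carried Mex3a flox/flox with a Cre driver and the same reporters. The genotype entry of the OMP-GFP KO reads OMP-ires-Cre where its description reads OMP-ires-GFP. All mice therefore carried floxed Mex3a, and ages were not given. The labels name 8 footprint libraries, with 2 in each group. The deposited table gives a single column for every group and assay, so no difference between groups has a replicate check.

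Footprint columns held 3031489 to 4456989 counts. The Ngn1-GFP control RNA column, at 89327877 counts, was the deepest, and the other RNA columns held 26946592 to 31855259. The deleted gene, Mex3a, had 437 footprints in immature control cells and 28 in immature KO cells, and 16 and 5 in mature ones. Values listed as 4 below follow this order. Of the marker lists, summed footprints of 6 precursor markers were 498 and 546 CPM (counts scaled to a common library size) in immature control and KO cells against 39.4 and 57.6 in mature ones. Summed footprints of 8 mature neuron markers were 11385 and 12601 CPM against 18203 and 22357. The 6 immature neuron markers differed less, at 6557 and 8126 against 6182 and 6488 CPM, so their sum separated the sorts little. A sum can hide members that differ, and Dpysl3 of this list was lower in mature cells (values below). Footprints of 7 sustentacular cell markers stood at 4818 CPM in immature controls, 634 in their KO, 152 in mature controls and 563 in theirs, with none of the 7 at 0 in any column. The part of these other cells in the results was not tested.

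An alpha and a beta subunit form a dimer, and dimers join end to end into the microtubule wall. Microtubules carry transport along axons, build the spindle of dividing progenitors and form the core of the cilia in which olfactory receptors sit. Vertebrate genomes hold several genes for each subunit, with nearly identical proteins that differ mainly at the acidic tail, which bears modifications and binds motors. The coding sequences are alike as well, most of all within the Tuba1 genes and between Tubb2a and Tubb2b, so short reads can match more than 1 of them. Tubb5 and Tuba1b are widely expressed isotypes, and Tubb3 is the classical neuronal beta isotype. Cells also adjust tubulin mRNA stability to the amount of free tubulin dimers while the protein is being made.

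The near copies lie close together in the genome. Tuba1b, Tuba1a and Tuba1c occupy 107 kb of chromosome 15 (98931429 to 98934390, 98949847 to 98953501 and 99029891 to 99038105), and Tubb2a and Tubb2b occupy 56.1 kb of chromosome 13 (34074278 to 34078008 and 34127008 to 34130354). Coordinates are those of RefSeq on GRCm38.p6, the assembly that mm10 represents. The same annotation lists 7 pseudogenes or related sequences of alpha and beta tubulins, among them Tubb4b-ps1, Tubb3-ps1 and Tubb2a-ps1. Coding lengths in the table ran from 1335 bases for Tubb4a and Tubb5 to 1436 bases for Tuba4a, so counts compare isotypes nearly as counts per length do.

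RefSeq promoter windows, the 250 bases before a transcript start, were available for 9 of the 10 genes. For 8 of the 9 that start is the outer end of the gene, and for Tuba4a it lies inside the gene's span. The 100 bases before the start are printed for the 3 Tuba1 genes, whose counts cannot be told apart with certainty, and for Tubb3 and Tubb5, which lead the footprints. They run 5′ to 3′ on the gene's strand, and capitals mark TATAA or CCAAT boxes and their reverse complements.
Tuba1a (chr15:98953502-98953601, minus strand): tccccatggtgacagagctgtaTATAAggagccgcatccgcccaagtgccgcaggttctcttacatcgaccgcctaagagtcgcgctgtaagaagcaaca
Tuba1b (chr15:98934391-98934490, minus strand): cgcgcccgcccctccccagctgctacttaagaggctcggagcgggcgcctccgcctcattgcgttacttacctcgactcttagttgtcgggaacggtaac
Tuba1c (chr15:99029791-99029890, plus strand): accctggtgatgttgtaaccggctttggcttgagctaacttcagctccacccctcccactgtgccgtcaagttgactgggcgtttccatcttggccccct
Tubb3 (chr8:123411453-123411552, plus strand): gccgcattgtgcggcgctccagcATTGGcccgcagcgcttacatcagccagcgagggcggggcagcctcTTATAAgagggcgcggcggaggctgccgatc
Tubb5 (chr17:35838302-35838401, minus strand): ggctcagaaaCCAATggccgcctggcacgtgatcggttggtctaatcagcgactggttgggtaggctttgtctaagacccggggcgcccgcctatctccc
Unlike the coding regions, these upstream sequences had little in common. The longest run of bases shared by any of the 36 pairs of promoters was 12 bases, and Tuba1a and Tuba1c shared 10. On either strand of the 250 bases, TATAA was present in 3 of 9 (Tuba1a, Tubb2a and Tubb3) against 22.8% of 32851 promoters. The Sp1 box GGGCGG was present in 6 of 9, the internal Tuba4a window included, against 32.7%, and CCAAT in 5 of 9 against 33.8%. Neither TCCC and GGGA spaced by 2 bases, a motif of the Ebf factors of olfactory neurons (0.779% of all promoters), nor CAGATG, an E-box of neurogenins (14.4%), was present in these windows, which says only that these letters are absent there. No motif searched contains another, and a match describes letters and not a binding site.

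Beta isotypes carried most tubulin footprints, and Tubb5 and Tubb3 carried most of those. The share of footprints on the 10 genes was 0.582%, 0.591%, 0.371% and 0.313%. Mature cells thus had the lower tubulin share in both genotypes. In these bulk samples fewer cells of a type and less RNA per cell cannot be told apart. Alpha over beta footprint counts were 0.230, 0.225, 0.305 and 0.295, so both mature columns lay above both immature columns. The sources do not give how reads that match more than 1 gene were counted, and the alpha genes hold 3 near copies.

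The mixture of isotypes in footprints differed between immature and mature cells far more than between genotypes. Tubb5 made up 42.5% of tubulin footprints in immature controls and 43.5% in immature KO cells, against 20.8% and 23.4% in mature cells. Tubb3 was the second isotype in Ngn1-GFP cells, at 24.0% and 23.1%, and the first in OMP-GFP cells, at 31.5% and 31.01%. The ratio of Tubb5 to Tubb3 footprints was 1.77, 1.88, 0.661 and 0.753. Tubb4b, a beta isotype of cilia, made up 8.94% and 8.41% in Ngn1-GFP cells and 19.4% and 18.1% in OMP-GFP cells. Tuba4a, an alpha isotype whose gene, unlike those of the other alpha isotypes here, encodes no C-terminal tyrosine, made up 1.71% and 1.75% against 4.71% and 5.99%. Tuba1a, the main alpha isotype of neurons, kept a share of 15.9% to 17.7% in all 4 columns. Wilson 95% intervals of these shares, which cover counting error only, spanned 41.9% to 43.1% for Tubb5 in the Ngn1-GFP control and 20.1% to 21.5% in the OMP-GFP control. PCR copies of reads are not independent molecules, so all intervals here are too narrow by an unknown amount.

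**Figure D1:**
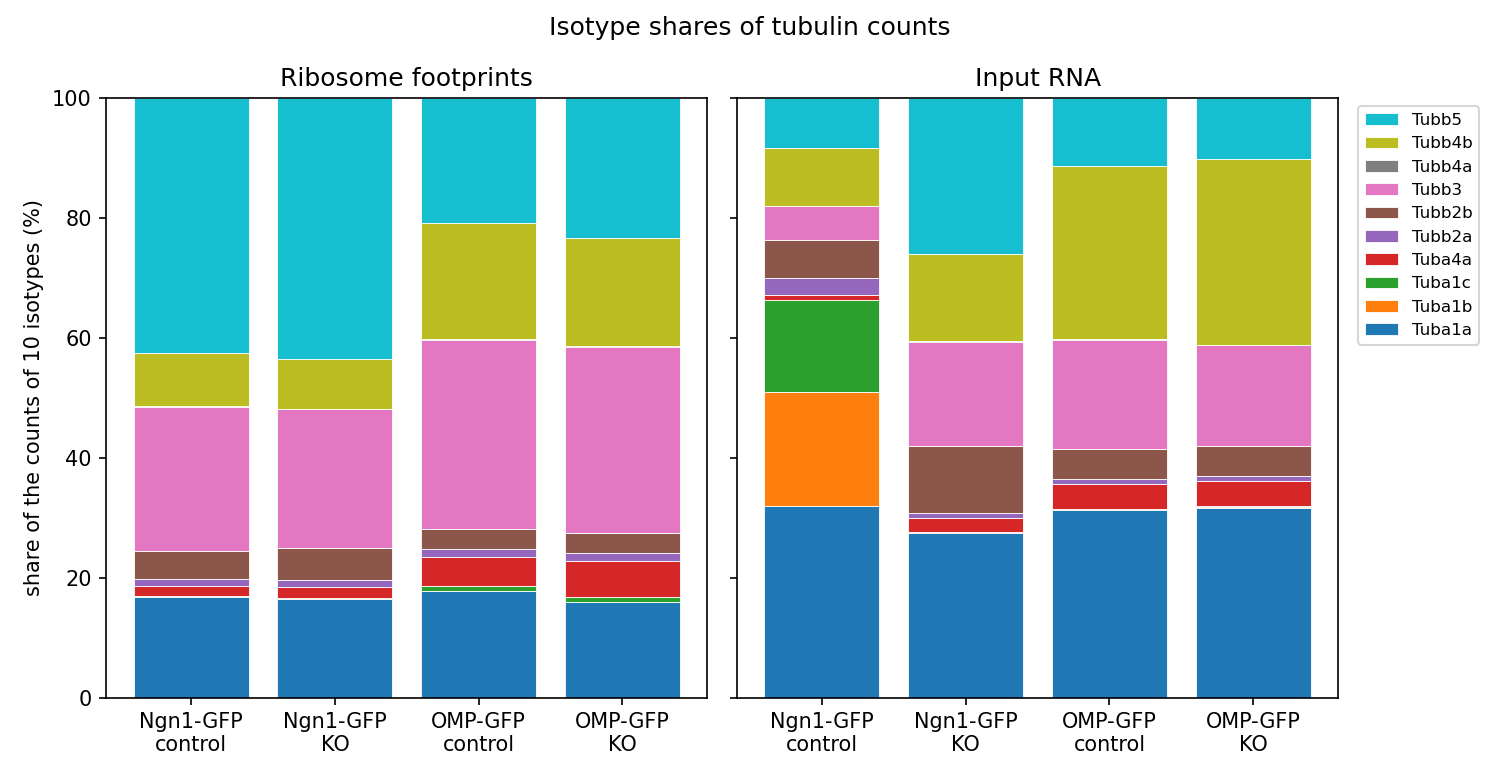
Share of the counts on the 10 isotypes taken by each isotype (y axis, percent), for footprints (left) and input RNA (right), with 1 bar per column of the deposited table. Tubb5 fills 42.5% and 43.5% of the Ngn1-GFP footprint bars and 20.8% and 23.4% of the OMP-GFP ones, and the Ngn1-GFP control RNA bar is the only bar with wide Tuba1b (19.1%) and Tuba1c (15.3%) segments.

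Levels below are CPM after scaling by the trimmed mean of M values (TMM), which sets most genes level between columns. A ratio is the log2 of scaled counts with its exact 95% counting interval in brackets. A gene was called where it was at least 2-fold apart, its interval excluded no difference and the pair held at least 20 counts. The 4 comparisons share columns with each other, so their values stand side by side and do not support each other.

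Tubb5 had the most footprints among beta isotypes in Ngn1-GFP cells and set the largest well-covered difference between the populations. Its scaled footprints were 2239 and 2437 CPM in immature control and KO cells, and 812 and 811 CPM in mature ones. Both mature columns lay below both immature columns, and the mature pair was level. The ratio of OMP-GFP over Ngn1-GFP was -1.46 [-1.52, -1.40] in controls and -1.59 [-1.65, -1.53] in KO, or 2.76-fold and 3.004-fold lower. Tubb5 RNA gave -1.35 [-1.37, -1.32] and -1.66 [-1.69, -1.63] for the same pairs. Precursor markers, which include genes of dividing cells, were also lower in OMP-GFP columns (values above). So were summed footprints of vessel and connective tissue markers (1219, 1491, 141 and 120 CPM, none of 5 at 0). Horizontal basal cell markers were at 102, 113, 2.35 and 0.811 CPM, with Trp63 and Krt14 at 0 in both mature columns and Icam1 in the KO one. Ensheathing glia markers were at 47.5, 57.5, 6.76 and 11.1 CPM, with Frzb at 0 in both mature columns and S100b and Sox10 each at 0 in a single mature column. Nasal gland markers did not follow, at 243, 442, 49.9 and 453 CPM, with Bpifb5 at 0 in the Ngn1-GFP control and OMP-GFP KO. Neither did immune and blood cell markers, at 58.3, 45.0, 39.1 and 120 CPM, with Pf4 at 0 in the Ngn1-GFP KO. The part of these cells in the Tubb5 values was not tested.

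Tubb2b, a beta isotype of young neurons, went the same way. Its scaled footprints were 249.1 and 301 CPM in immature cells, and 129 and 115 CPM in mature cells. The immature and mature columns did not overlap. The ratio was -0.95 [-1.11, -0.79] in controls, just short of 2-fold (-1.16 with scaling by library size alone), and -1.39 [-1.55, -1.22] in KO, past it. Its RNA ratios were -2.10 [-2.14, -2.06] in controls and -1.48 [-1.53, -1.44] in KO. Tubb2a, its near copy, was less abundant at 46.2 to 65.4 CPM, and its footprint ratios were 0.01 [-0.27, 0.28] in controls and -0.50 [-0.80, -0.20] in KO. The sum of both genes gave -0.73 [-0.86, -0.59] and -1.18 [-1.33, -1.04].

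Tuba4a and Tubb4b were the abundant isotypes with more footprints in mature cells. Tuba4a had 90.2 and 97.9 CPM in immature cells, and 184 and 208 CPM in mature cells. Its ratio was 1.03 [0.85, 1.20] in controls and 1.09 [0.90, 1.28] in KO, at the 2-fold line, and its RNA ratios were smaller, at 0.55 [0.49, 0.60] and 0.59 [0.52, 0.66]. Both Tuba4a ratios lay under 2-fold with scaling by library size alone (0.81 and 0.86). Tubb4b had 471 CPM in both immature columns, 758 in mature controls and 627 in their KO. Its ratios of 0.68 [0.60, 0.77] and 0.41 [0.32, 0.51] stayed under 2-fold. Footprints of 8 genes of motile cilia, a list drawn for multiciliated respiratory cells, were likewise higher in OMP-GFP columns, at 820, 838, 1275 and 1390 CPM with none at 0. Olfactory neurons bear cilia themselves, and whether respiratory cells had a part in the Tubb4b values was not tested.

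Tubb3 and Tuba1a, isotypes typical of neurons, stayed under 2-fold. Tubb3 had 1264, 1298, 1229 and 1077 CPM. Its 4 columns lay within 1.21-fold of each other, with ratios of OMP-GFP over Ngn1-GFP of -0.04 [-0.10, 0.02] in controls and -0.27 [-0.33, -0.21] in KO. Tuba1a had 881, 918, 692 and 552 CPM. Its ratio was -0.35 [-0.42, -0.28] in controls and -0.73 [-0.82, -0.65] in KO, so it lay lower in OMP-GFP columns without reaching 2-fold. Among 1107 genes with at least 500 footprints in each column, those with a pattern over the 4 columns nearest to Tubb3 were Cldn3, Rab1b and Ppib, with root mean square log2 differences of 0.02, 0.03 and 0.03 against a median of 0.28. Those nearest to Tuba1a were Srsf1, Olig1 and Hdgf, at 0.05, 0.06 and 0.08 against a median of 0.45. With 4 columns such likeness is a description of these columns only.

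Tuba1b, Tuba1c and Tubb4a had few footprints, and their ratios rest on small counts. Tuba1b had 26 and 44 footprints in immature control and KO cells, and 5 and 9 in mature ones. Tuba1c had 43, 1, 123 and 103. Tubb4a, a beta isotype of the brain, had 34, 13, 21 and 21. Tuba1b ratios were -1.85 [-3.58, -0.44] in controls and -2.50 [-3.72, -1.45] in KO, and Tuba1c ratios were 2.05 [1.54, 2.58] and 6.48 [3.97, 11.79]. The counts assigned to Tuba1b and Tuba1c thus gave ratios of opposite sign, while Tuba1a took 2041 to 4337 footprints in every column. Counts of these 3 near copies cannot be told apart with certainty. Whether Tuba1b or Tuba1c itself differed between the populations was therefore not tested. The sum of the 3 Tuba1 genes gave -0.30 [-0.37, -0.22] and -0.68 [-0.76, -0.60], close to Tuba1a alone.

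**Figure D2:**
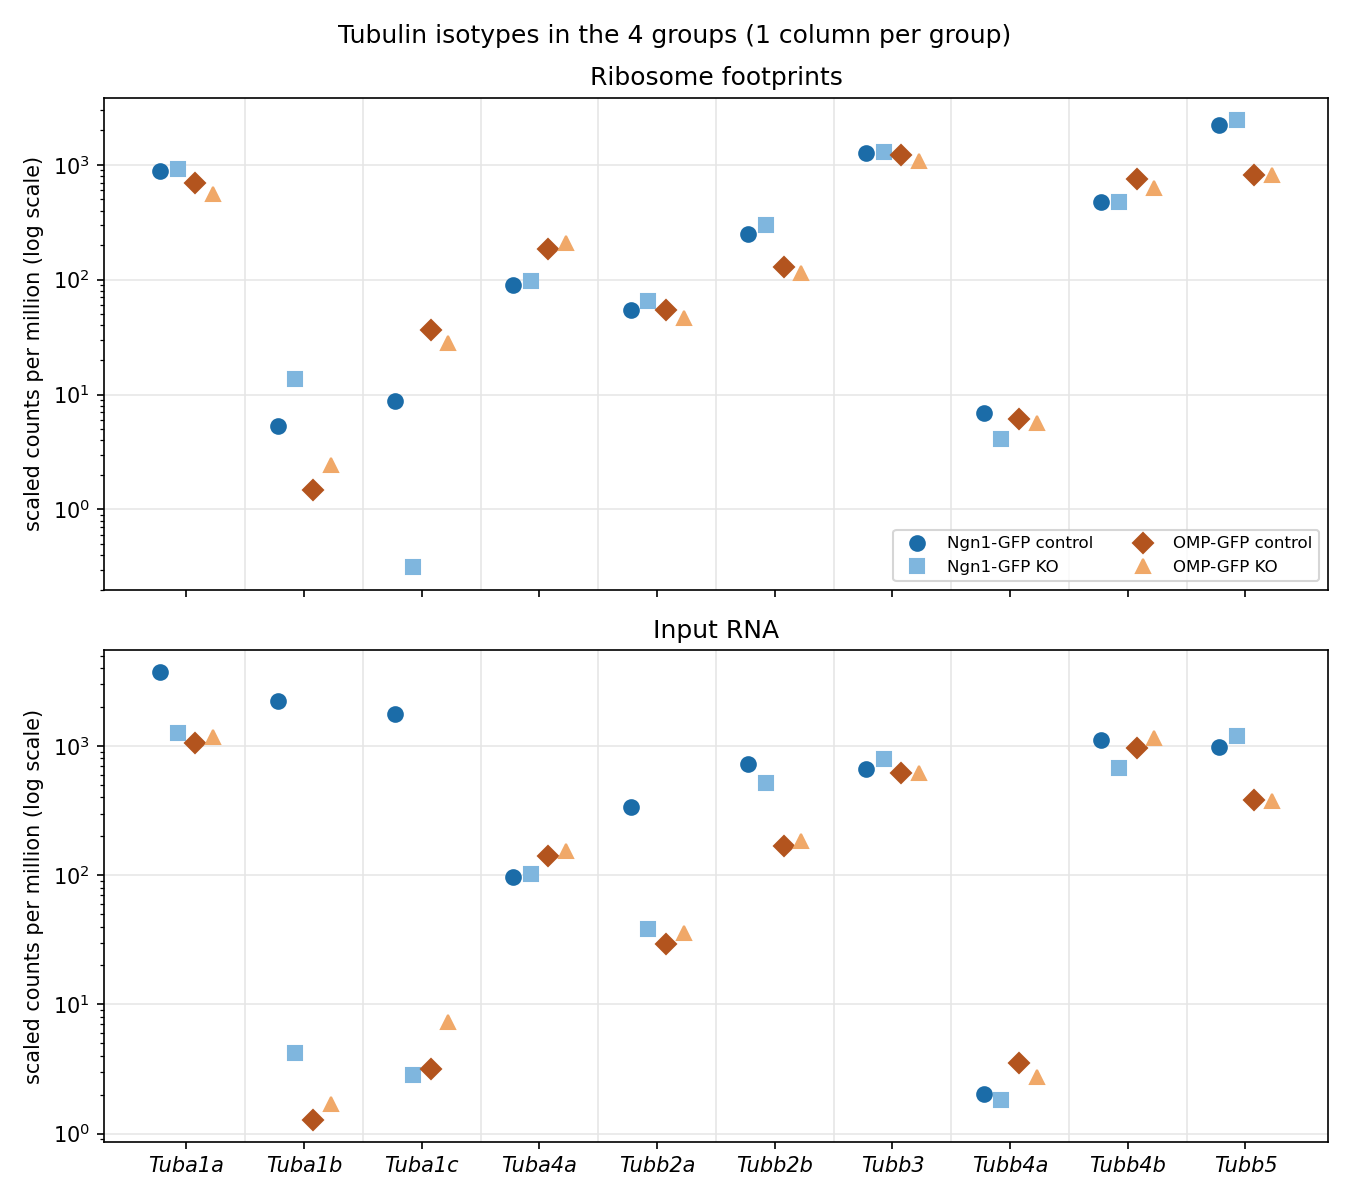
Scaled CPM of each isotype (y axis, log scale) in footprints (top) and input RNA (bottom), with 1 symbol per column of the table and no error, since each group has 1 column. Footprints of Tubb5 drop from 2239 and 2437 CPM in immature cells to 812 and 811 in mature cells, and in RNA the Ngn1-GFP control symbol stands far above the others for Tuba1b and Tuba1c.

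In the controls 2 isotypes were called higher in OMP-GFP footprints (Tuba1c and Tuba4a) and 2 lower (Tubb5 and Tuba1b), of 10 measured. Of 12387 genes, 6.11% were called higher and 17.4% lower. In KO 2 isotypes were higher (Tuba1c and Tuba4a) and 3 lower (Tubb5, Tubb2b and Tuba1b), where 11.3% of 11766 genes were higher and 18.4% lower. With so few members these shares are given without a test. Among genes with at least 500 footprints in the pair, 2 of 6 isotypes were called in controls and 3 of 6 in KO, beside 8.2% and 9.49% of genes in either direction. The median ratio over the isotypes was -0.10 in controls and -0.38 in KO, against -0.02 and -0.01 over all genes tested.

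**Figure D3:**
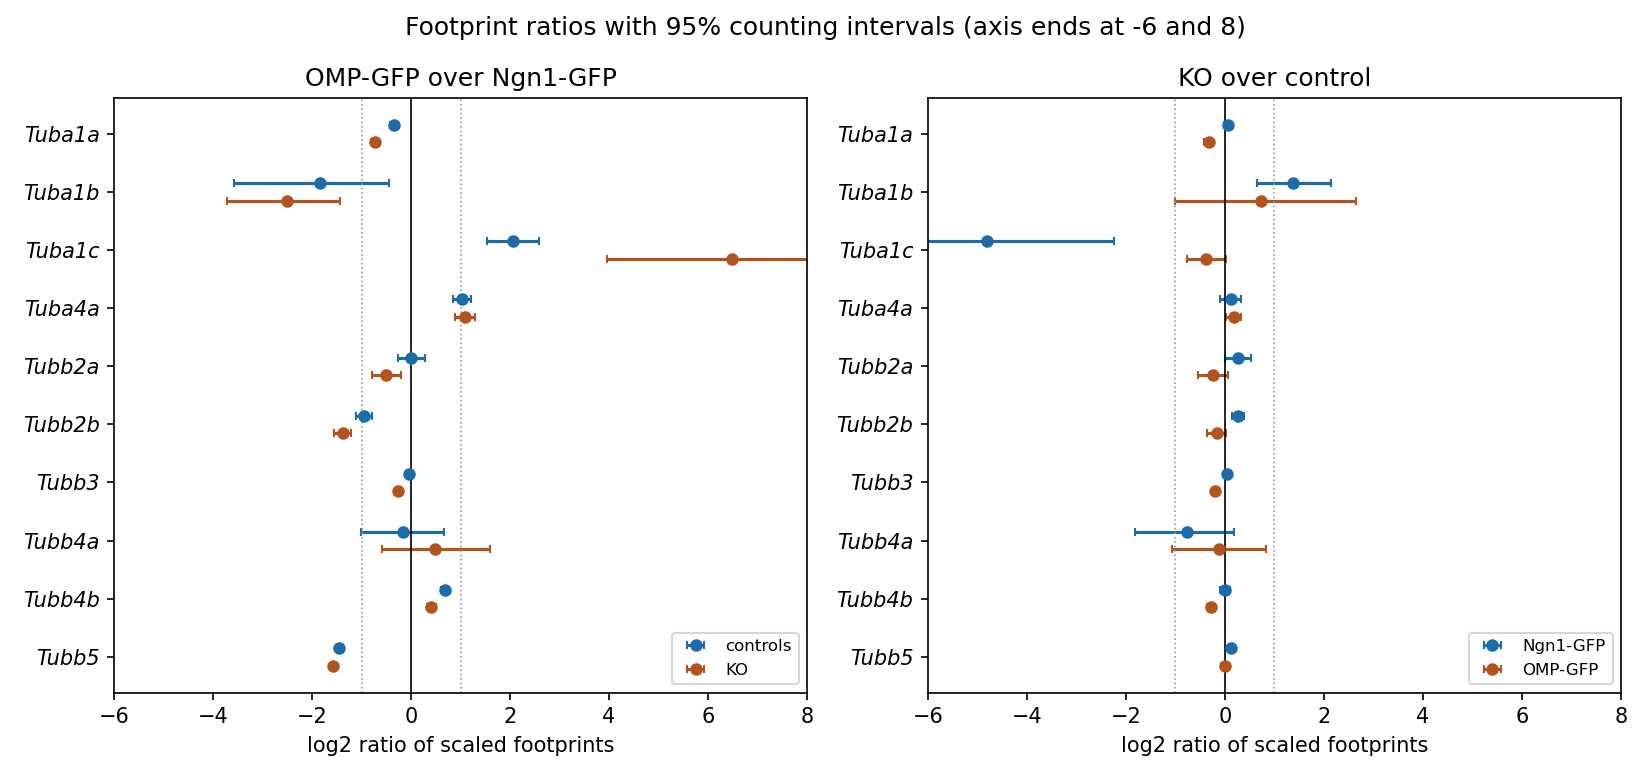
Log2 ratios of scaled footprints with 95% counting intervals (x axis) for each isotype, for OMP-GFP over Ngn1-GFP (left; controls and KO) and KO over control (right; Ngn1-GFP and OMP-GFP). Dotted lines mark 2-fold and wide bars, such as those of Tuba1b, Tuba1c and Tubb4a, mark few footprints; Tubb5 lies at -1.46 and -1.59 on the left and at 0.12 and -0.00 on the right.

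Between KO and control the well-covered isotypes were near level. With a single column in each group, the deletion and a difference in what was sorted cannot be told apart. In Ngn1-GFP cells the footprint ratio was 0.12 [0.08, 0.16] for Tubb5, 0.04 [-0.02, 0.10] for Tubb3 and 0.06 [-0.01, 0.13] for Tuba1a. Tubb4b was at -0.00 [-0.09, 0.09], Tuba4a at 0.12 [-0.10, 0.33], Tubb2a at 0.26 [-0.00, 0.53] and Tubb2b at 0.27 [0.15, 0.40]. No isotype with at least 500 footprints in the pair was called, of 6, beside 1.97% of genes. The calls were Tuba1b (1.38 [0.65, 2.14], 26 to 44 footprints) and Tuba1c (-4.80 [-10.14, -2.25], 43 to 1), beside 6.49% of 12554 genes called higher and 10.8% lower. The single Tuba1c footprint of the Ngn1-GFP KO underlies its low ratio here and its ratio of 6.48 in the KO pair; the called ratio of 2.05 in the control pair does not use that column.

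In OMP-GFP cells no isotype was called among the 9 with at least 20 footprints in the pair, beside 7.12% of 11160 genes higher and 8.54% lower; of the 6 isotypes with at least 500 footprints none was called, beside 1.81% of genes. Ratios below 0 were found for 8 of the 9, with the interval below 0 for 3 and above 0 for 1. How many of all genes had ratios or intervals below 0 was not counted. The median over the isotypes was -0.19, against 0.004 over all genes tested. Isotype ratios ran from -0.38 to 0.18. The standard deviation of this ratio over genes with at least 500 footprints in the pair was 0.399, so each isotype ratio was smaller in size than that spread. Tuba1a was at -0.33 [-0.41, -0.24], Tubb4b at -0.27 [-0.35, -0.19] and Tubb3 at -0.19 [-0.25, -0.13]. Tubb5 was level at -0.00 [-0.08, 0.07], and Tuba4a was the isotype above 0, at 0.18 [0.02, 0.33]. RNA of the same genes did not follow: Tuba1a was at 0.15 [0.13, 0.17], Tubb4b at 0.23 [0.21, 0.26] and Tubb3 at 0.02 [-0.01, 0.05]. Summed over the 10 genes, footprints were at -0.17 [-0.20, -0.13] and RNA at 0.13 [0.12, 0.14]. In RNA, Tuba1c was called higher (1.21 [0.85, 1.57], 98 to 189 counts) and none lower, beside 4.4% and 3.89% of 14351 genes.

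The RNA column of the Ngn1-GFP control held tubulin counts unlike those of the other 3 RNA columns. Tuba1b had 199783 RNA counts there, against 123 in immature KO cells and 40 and 44 in mature control and KO cells. Tuba1c had 160629 against 82, 98 and 189. After scaling, this was 525-fold and 246-fold above the highest other column. The footprints of the same control sort showed no such excess: Tuba1b and Tuba1c had 26 and 43 footprints there.

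The other members differed in how far this column stood from the rest. Tubb2a RNA was 8.65-fold above the highest other column (30121 counts against 1125, 906 and 932), and Tuba1a 2.94-fold (334049 against 36776, 32906 and 30460). Tubb2b stood 1.40-fold above the highest other column. Tubb4b, Tubb3, Tubb5, Tuba4a and Tubb4a lay at 0.97, 0.84, 0.82, 0.63 and 0.57 of it, so their Ngn1-GFP control values were within or below the range of the others. Against the Ngn1-GFP KO alone, control RNA was 1.65-fold higher for Tubb4b, whose footprints were level, and 1.11-fold higher for Tubb4a. It was 1.20-fold, 1.22-fold and 1.05-fold lower for Tubb3, Tubb5 and Tuba4a. Summing the near copies did not bring the control into range, at 6.07-fold for the 3 Tuba1 genes and 1.91-fold for the Tubb2 pair. The excess was therefore in the sums as well as in single genes.

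Tubulins were not alone in this. Of 14168 genes with at least 100 RNA counts in some column, 363 (2.56%) were at least 8-fold above each other column in the Ngn1-GFP control, and 2, 0 and 3 in the other RNA columns. A gene also needed at least 100 counts in the column checked, which is a lower level in this deepest column than in the others. These 363 genes took 4.86% of that column's counts. Among gene families with many near copies, 24 of 65 clustered histone genes, 9 of 96 ribosomal protein genes and 3 of the 10 tubulin isotypes were among them, against 0 of 36 proteasome subunits, and olfactory receptors were there with 16 of 990. Of 13 mitochondrially encoded genes, 6 were among them. In footprints the counts of such genes were 23, 1, 0 and 0 of 7572, with none of the 8 isotypes measured. Grouping by family symbols was chosen after the table was seen. Whether reads matching several genes were counted differently in this column was not tested, since no source gives the processing of each column.

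Every RNA ratio against the Ngn1-GFP control uses that column. Against it 4 isotypes were called lower in the Ngn1-GFP KO RNA (Tuba1a at -1.55, Tuba1b at -9.04, Tuba1c at -9.31 and Tubb2a at -3.11) and 0 higher, beside 11.3% and 4.49% of 16231 genes. Against it 6 isotypes were called lower in the OMP-GFP control (these 4, Tubb2b and Tubb5) and 0 higher, beside 23.3% and 3.49% of 16150 genes. The KO pair of populations does not use that column. There, RNA of 3 isotypes was called lower in OMP-GFP cells (Tubb5, Tubb2b and Tuba1b at -1.66, -1.48 and -1.32) and 1 higher (Tuba1c at 1.37), beside 16.4% and 4.77% of 15058 genes. Tubb4b RNA gave 0.76 [0.74, 0.79] in that pair and -0.19 [-0.21, -0.17] in controls.

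The share of RNA counts on the 10 genes was 1.17% in the Ngn1-GFP control, against 0.481%, 0.330% and 0.357% in the other 3. Alpha over beta RNA counts were 2.05 there and 0.427, 0.554 and 0.564 elsewhere. In the other 3 columns Tuba1a was the largest RNA isotype, at 27.5%, 31.3% and 31.7%. Tubb5 was next in the Ngn1-GFP KO at 25.9%, and Tubb4b was next in OMP-GFP control and KO at 28.8% and 30.9%. The order of isotypes therefore differed between RNA and footprints, where Tubb5 or Tubb3 led.

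Footprints per RNA, the ratio of scaled footprints to scaled RNA, separated the beta isotypes. Tubb5 was at 2.29, 2.05, 2.11 and 2.16, and Tubb3 at 1.89, 1.63, 2.004 and 1.74. The median over all genes was 1.03 to 1.09, so both lay above it in each column. Tubb4b was at 0.424, 0.701, 0.780 and 0.548 and Tubb2b at 0.345, 0.585, 0.766 and 0.626, below the median in each column. Tuba4a lay near it at 0.930, 0.959, 1.30 and 1.35. Tuba1a was at 0.238, 0.727, 0.655 and 0.472. Tubb4a was at 3.42, 2.23, 1.75 and 2.08, on 34, 13, 21 and 21 footprints. All these values lay between the 5% and 95% quantiles over all genes of their column. Across columns these quantiles were 0.224 to 0.263 and 3.80 to 4.39. Whether reads that match near copies or pseudogenes had a part in these values, in either assay, was not tested.

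Footprints per RNA of Tuba1b, Tuba1c and Tubb2a differed widely between columns. Tuba1c was at 0.005, 0.111, 11.5 and 3.84, so it also differed among the columns other than the Ngn1-GFP control. In those columns it had 1, 123 and 103 footprints. Tuba1b was at 0.002 footprints per RNA in the Ngn1-GFP control and 3.26 in the Ngn1-GFP KO, and Tubb2a at 0.163 against 1.69. The authors' deposited table gives translational efficiencies of 0.003 and 4.39 for Tuba1b and of 0.238 and 2.28 for Tubb2a in these groups, so the same gap is in the authors' values. For Tubb5 the authors' deposited table gives 3.35, 2.76, 2.72 and 2.77. Its scale differs from the ratios here by a factor that is shared by all genes of a column.

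**Figure D4:**
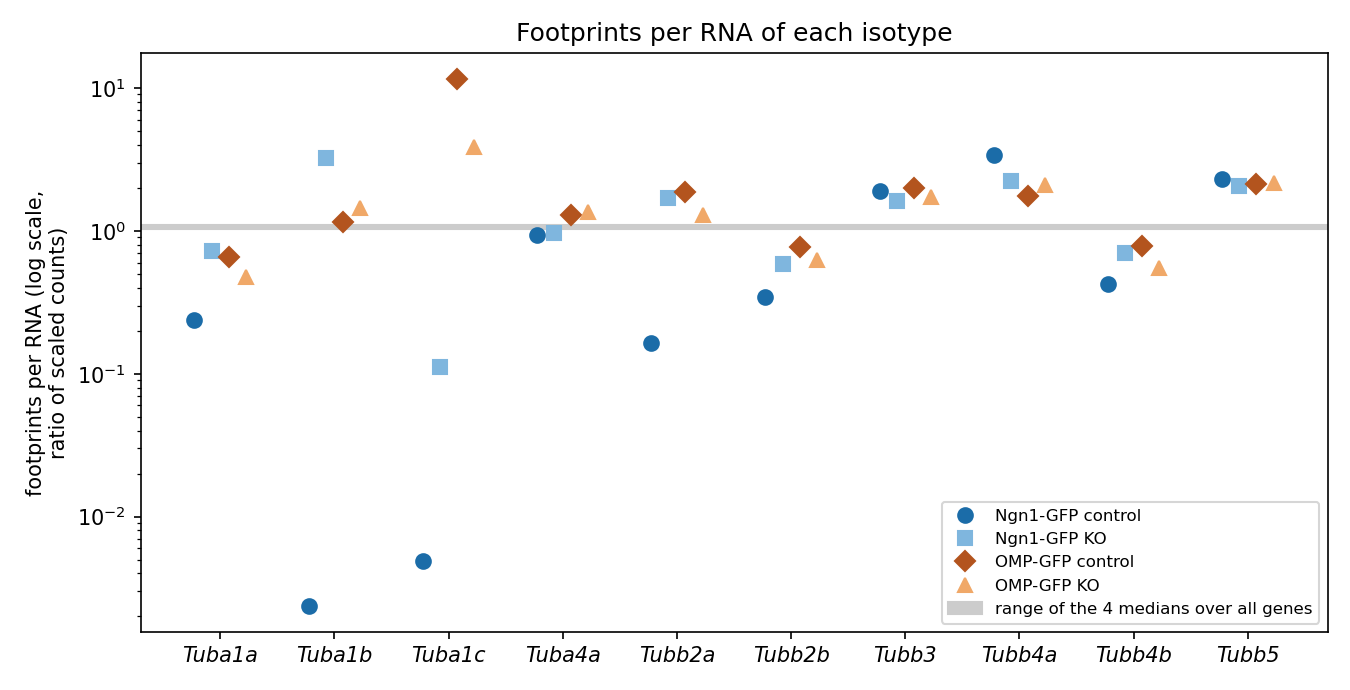
Footprints per RNA of each isotype (y axis, log scale, ratio of scaled counts) in the 4 groups, with 1 symbol per group and a grey band for the range of the all-gene medians, 1.03 to 1.09. Tubb5 and Tubb3 lie above the band in all 4 groups, and the Ngn1-GFP control symbols of Tuba1b (0.002) and Tuba1c (0.005) lie far below the other groups.

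Of the other tubulin genes, the further alpha and beta isotypes were scarce. Tuba3a, Tuba3b, Tuba8, Tubal3 and Tubb1 had at most 10 footprints in any column. Tubb6, a beta isotype of non-neuronal cells, had 33 and 20 footprints in immature cells and 2 and 3 in mature cells. Tubg1, which encodes the gamma-tubulin that nucleates microtubules, had 254, 165, 201 and 202, and Tubg2 had 9, 0, 17 and 0. Tubgcp4, a subunit of the gamma-tubulin ring complex, was lower in Ngn1-GFP KO footprints at -1.76 [-2.58, -1.02] (94 to 18), with RNA at 0.11, and at 0.75 [0.18, 1.34] in the OMP-GFP KO (41 to 75). Of the 15 genes of this list, 9, 7, 10 and 8 were measured in footprints for Ngn1-GFP KO, OMP-GFP KO, the control pair and the KO pair. Higher calls numbered 0, 0, 1 and 1, beside 6.49%, 7.12%, 6.11% and 11.3% of all genes. Lower calls numbered 1, 0, 1 and 1, beside 10.8%, 8.54%, 17.4% and 18.4%. The calls not given above, named after their values were seen, are Tubg2 and Tubb6 in the control pair (1.45 and -3.51) and Tubgcp4 and Tubb6 in the KO pair (1.85 and -2.95).

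Genes that fold tubulin, such as the CCT chaperonin, prefoldin and the tubulin cofactors, gave no lower call between immature and mature cells. All 20 listed genes in the table were measured. None was called in controls and 1 was called higher in KO, Pfdn4 of prefoldin (1.44 [1.15, 1.74], RNA 0.27), beside 6.11% higher and 17.4% lower of all genes in controls and 11.3% and 18.4% in KO. The list medians were 0.19 in controls and 0.09 in KO, against -0.02 and -0.01 over all genes. Tcp1, a chaperonin subunit, had the largest lower ratio among the named genes, at -0.48 [-0.61, -0.35] and -0.51 [-0.64, -0.38]. In the KO comparisons Arl2, a small GTPase of the cofactor pathway, was lower in Ngn1-GFP KO footprints (-1.38 [-2.12, -0.69]), at 22 against 88 counts. In the OMP-GFP KO, Pfdn4 was called higher (1.04 [0.78, 1.30]) and Arl2 lower (-1.21, 31 against 66 footprints); the latter was named after its value was seen. These were all the folding calls of the KO comparisons. Ttc5, Scaper and Cnot11, which carry out the decay of tubulin mRNA when free dimers are abundant, gave no call in any comparison. Scaper was at 0.54 [0.36, 0.72] and 0.53 [0.34, 0.72] in OMP-GFP over Ngn1-GFP footprints.

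Enzymes that modify tubulin and proteins that bind microtubules gave calls in both directions. Of 17 measured modification genes, 3 were called higher and 1 lower in the control pair of populations, and of 18 in the KO pair 4 were higher and 3 lower. The shares over all genes were 6.11% and 17.4% in controls and 11.3% and 18.4% in KO. Ttll6, a polyglutamylase of cilia, was higher in OMP-GFP control footprints (1.24 [1.09, 1.39], RNA 0.73), and so was the related ligase Ttll11 (1.04 [0.56, 1.52]). Ttl, which restores the terminal tyrosine of alpha tubulin, was higher in the KO pair (1.14 [0.63, 1.67], RNA -0.07). The other calls, named after their values were seen, were Agbl2 (1.60) and Atat1 (-1.45) in controls. In KO they were Ttll6 (1.54), Ttll11 (1.022), Agbl3 (1.28), Ttll12 (-1.04), Agbl5 (-1.11) and Vash1 (-3.67, 22 to 2 footprints). Of 29 microtubule-associated proteins of neurons, 2 were higher and 2 lower in controls, and 1 higher and 3 lower in KO, beside the same all-gene shares. Dpysl3, a collapsin response mediator of growing axons that is also in the immature neuron marker list, was at -1.58 [-1.66, -1.499] and -1.78 [-1.87, -1.70], with RNA at -1.46 and -2.08. The axonal protein tau, encoded by Mapt, was at -1.30 [-1.70, -0.91] and -1.38 [-1.91, -0.88]. Macf1, a linker of microtubules to actin, was higher in controls (1.46 [1.35, 1.57], RNA 0.79). The other calls were Map1a in controls (1.29), and Tppp (1.19) and Dclk1 (-1.18) in KO; Map1a and Dclk1 were named after their values were seen.

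In the KO comparisons the all-gene shares were 6.49% higher and 10.8% lower in Ngn1-GFP cells, and 7.12% and 8.54% in OMP-GFP cells. None of the 29 microtubule-associated proteins was called in Ngn1-GFP KO footprints, and Map1b, a microtubule-stabilising protein of growing axons, was at 0.73 [0.70, 0.75] with RNA at 0.57. In OMP-GFP KO footprints Map4 was higher (1.04 [0.85, 1.24]) and Map1s lower (-1.10 [-1.36, -0.83]). Their RNA ratios were 0.32 and -0.09. Of 17 modification genes 2 were higher and 0 lower in Ngn1-GFP cells, and 2 higher and 2 lower in OMP-GFP cells, among them Ttll12 (-1.23 [-1.74, -0.73]). The others, named after their values were seen, were Vash1 and Agbl2 in Ngn1-GFP cells, and Atat1, Agbl3 (both higher) and Agbl2 (lower) in OMP-GFP cells. Of 6 genes that sever microtubules 5 were measured, and none was called in the KO comparisons. Fignl1, named after its values were seen, was called lower in each pair of populations, beside 17.4% and 18.4% of all genes. It was at -1.01 [-2.09, -0.03] in controls (12 against 35 footprints) and -1.46 [-2.52, -0.49] in KO (13 against 31). Spast, which encodes spastin, was at 0.39 [0.18, 0.60] in Ngn1-GFP KO footprints and at -0.50 [-0.73, -0.27] in the OMP-GFP KO.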

How the data were processed

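Footprints and input RNA of sorted cells were measured per the labels, with papain dissociation and a stranded low-input kit. FastQC, cutadapt, STAR and mm10 are named in the submitters' processing notes, without versions. The deposited table gives, per the file headers, footprint and RNA counts over coding sequences, coding length in bases, footprint RPKM, RNA TPM and the authors' translational efficiency ratio, in 1 column per group. No source gives how libraries were combined. No p-values and no standard deviations between replicates were computed, and the standard deviation given above is over genes. The members and gene lists were chosen with earlier results of these data known.

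Counts were scaled by TMM (edgeR 4.0.16, R 4.3.3) over genes kept by filterByExpr (minimum count 10, total 15; 13479 genes for footprints and 16388 for RNA). Ratios, exact conditional binomial 95% intervals and Wilson intervals were computed in Python 3.11.15 (scipy 1.17.1); figures were drawn in matplotlib 3.10.9. A call needed at least 20 counts in the pair and a 2-fold ratio. All 10 members are named, and of each list at most 3 genes per comparison by the size of the footprint ratio among genes with at least 100 footprints in the pair. Cct6a was not analysed here, and the name of the Cre driver is not reported here. Symbols and promoters were matched to RefSeq (GRCm38.p6) for 10 and 9 members. The design had foreseen near copies defined by shared protein stretches, and family symbols replaced this. Alternatives were library size alone, DESeq2 1.42.0 size factors, TMM without receptor, mitochondrial and ribosomal genes, TMM without genes 8-fold above in the Ngn1-GFP control RNA, no filter, at least 50 counts in both columns, shares per coding length, near copies summed, the authors' efficiency and a 4-fold column check; TMM without the Ngn1-GFP control column was added after the data were seen.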

Additional observations from a re-analysis of the deposited data

Results flagged for a closer look

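The log2 ratios of KO over control had opposite signs in Ngn1-GFP and OMP-GFP cells, with counting intervals off 0 on both sides, for several RNA values. Each group has 1 column, so these differences were not tested. Going from Ngn1-GFP to OMP-GFP cells the ratio went from -1.55 to 0.15 for Tuba1a RNA, a difference of 1.70. For Tuba1c RNA it went from -9.31 to 1.21, a difference of 10.51. The corresponding differences were 3.41 for Tubb2a RNA (-3.11 to 0.30), 0.62 for Tubb2b RNA (-0.49 to 0.13) and 0.96 for Tubb4b RNA (-0.72 to 0.23). For summed tubulin RNA the difference was 1.47 (-1.34 to 0.13). In footprints it was found for the tubulin sum, at -0.26 (0.09 to -0.17), for the beta sum (0.09 to -0.16) and for Tubb2a and Tubb2b summed (0.27 to -0.19). No single isotype had such opposite footprint ratios. Those of the tubulin and beta sums depend on the scaling. Library size alone shifts the Ngn1-GFP footprint ratios by -0.066. The lower interval ends there were 0.062 for the tubulin sum and 0.064 for the beta sum, so both intervals then include 0. For Tubb2a and Tubb2b summed the lower end was 0.159. The ratio of OMP-GFP over Ngn1-GFP RNA likewise changed sign between controls and KO for Tuba1c (-9.15 to 1.37, a difference of 10.51) and Tubb4b (-0.19 to 0.76, a difference of 0.96). All the RNA values rest on the Ngn1-GFP control column, in which Tuba1b and Tuba1c stood 525-fold and 246-fold above the highest other column.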

How the results depend on the processing

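No paired analysis was possible because the table has 1 column per group, and for the same reason no replicate could be left out. Of 500 alternative values of 79 isotype ratios, 477 stayed on their side of the threshold and within the counting interval where not called. Library size alone moved all footprint ratios by -0.23 to -0.07 and RNA ratios by -0.12 to 0.06, and accounted for the other 23: 20 left their interval, Tuba4a fell under 2-fold in both pairs of populations (0.81 and 0.86), and Tubb2b passed it in controls (-1.16). Other planned scalings moved ratios by at most 0.02. Scaling without the Ngn1-GFP control column, added after the data were seen, changed no isotype call in the 2 comparisons that do not use it. With at least 50 counts in both columns, Tuba1b and Tuba1c footprints were no longer measured in the 3 comparisons where they had been called. Called isotypes in footprints then numbered 0 in the Ngn1-GFP KO comparison, and 2 (controls) and 3 (KO) in mature against immature cells, and in RNA 5 and 3 where they had been 6 and 4. Per coding length the Tubb5 share of RNA in the Ngn1-GFP control was 8.51%, and other Tubb5 shares stayed within their intervals. Summed near copies gave 66.3% of RNA for the 3 Tuba1 genes in that column. Calls of the column check were 502 genes at 4-fold, with 3 isotypes. Near copies by shared protein stretches were not run, since no protein table was used here.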
